A study of Mus musculus with 26 samples.

Results

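This account concerns the few germ cells of the fetal mouse ovary that were sorted with the gate labelled BV rather than BVSC. The members were chosen by their labels: every cell of stage E14.5 with the gate BV in the libraries numbered 4 and 5 here, 45 cells, set against the 94 BVSC cells of the same stage and the same 2 libraries. These 139 cells belong to a series of 1881 single cells of female mouse gonads, which holds 50 BV cells in all. The other 5 BV cells are of E11.5 and entered no comparison; 4 of those 5 carried macrophage transcripts. The question was whether cells without the Stella reporter are further in meiosis than cells with it, or are cells of another type.

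All mice were of the BVSC transgenic strain, which carries Blimp1-mVenus and Stella-ECFP, so cells of both gates carry both transgenes and differ by which fluorescence was read. Every cell compared is named Female, WT and 2N. BV is taken here as the first reporter alone. The labels spell out only the full name BVSC, and no source used here gives the sort limits. Ovaries of several embryos were combined for the stage, with the plug day counted as E0.5, digested with trypsin and sorted, and cells were then picked by mouth pipette into a 3' tagged single-cell assay that counts unique molecular identifiers (UMIs). Both libraries carry the replicate label R1, so the spread between them may be technical.

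Primordial germ cells enter the fetal gonad with an active pluripotency programme. In the ovary they then answer retinoic acid by expressing Stra8, stop dividing by mitosis and enter meiotic prophase, in which the synaptonemal complex joins the paired chromosomes. Prdm1 encodes Blimp1, a transcriptional repressor that specifies primordial germ cells. Dppa3 encodes Stella, a chromatin-binding protein of primordial germ cells and oocytes. Stra8 encodes the factor that opens the meiotic programme, and Sycp1 encodes the transverse filament of the synaptonemal complex.

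Because the question turns on meiotic entry, the promoters of Stra8 and Sycp1 are shown first, with that of Hfm1 as the one with most matches among the 7 examined, from 250 bases before to 50 bases after the start of transcription (RefSeq, GRCm38.p6, 5' to 3' on the strand of the gene). Capitals mark matches to CNCCTCAG, searched on both strands, the DNA sequence known to be bound by STRA8. The Stra8 promoter (chr6:34920698-34920997, plus strand) had no match, the Sycp1 promoter (chr3:102936051-102936350, minus strand) had 1, beginning 32 bases after the start, and the promoter of Hfm1 (chr5:106925841-106926140, minus strand), a helicase of meiotic recombination, had 2. Those of Sycp3, Zfp541, Prdm1 and L1td1, not shown, had none.
Stra8: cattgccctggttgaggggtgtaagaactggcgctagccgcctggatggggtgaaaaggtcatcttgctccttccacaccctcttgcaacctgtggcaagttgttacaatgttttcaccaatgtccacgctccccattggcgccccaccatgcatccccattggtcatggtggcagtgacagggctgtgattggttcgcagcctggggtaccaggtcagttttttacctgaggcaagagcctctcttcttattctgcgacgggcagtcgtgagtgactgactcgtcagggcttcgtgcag
Sycp1: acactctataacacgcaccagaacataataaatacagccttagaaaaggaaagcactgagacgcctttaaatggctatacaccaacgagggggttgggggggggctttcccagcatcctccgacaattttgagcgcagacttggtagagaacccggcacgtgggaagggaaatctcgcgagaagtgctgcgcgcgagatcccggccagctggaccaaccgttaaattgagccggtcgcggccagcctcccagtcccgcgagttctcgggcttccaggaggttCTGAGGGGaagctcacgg
Hfm1: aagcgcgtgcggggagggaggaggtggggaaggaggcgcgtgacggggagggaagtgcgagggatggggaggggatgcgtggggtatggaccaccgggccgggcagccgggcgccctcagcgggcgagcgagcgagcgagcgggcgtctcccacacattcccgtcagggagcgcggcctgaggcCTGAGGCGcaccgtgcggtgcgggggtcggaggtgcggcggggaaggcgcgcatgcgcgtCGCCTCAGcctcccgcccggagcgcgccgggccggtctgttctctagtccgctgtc

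Library 4 held 15 BV, 31 BVSC and 43 Negative cells, the last being cells of the gate without reporter. Library 5 held 30 BV and 63 BVSC cells and no Negative cells. Each cell name also carries a letter, P, C or D, whose meaning is not given. In library 4 all BV cells have letter P and all BVSC cells have letter D, so letter and gate cannot be told apart there. Library 5 held 15 BV cells of letter C and 15 of letter D, 32 BVSC cells of letter C and 31 of letter P. Letter C of library 5 was thus the only set in which both gates shared library and letter. The 2 libraries used nearly the same cell numbers, with 86 in common out of 89 and 93, and each gate and letter occupied its own run of numbers. Per cell, BV spanned 22035 to 721862 UMIs around a median of 196208, and BVSC spanned 15606 to 830168 around 238828. The genes read here lie on chromosomes 1 to 7, 10, X and part of 8 and made up 51.2% of the UMIs of a cell at the median. Levels are given in CPM, the UMIs of a gene relative to all UMIs that the authors list for the cell, scaled in the customary way. A pool is the sum over the cells of a set.

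Most BV cells were germ cells by their transcripts, like the BVSC cells. Of 45 BV cells, 41 fell into clusters classed as germ (91.1%, exact 95% binomial interval 78.8% to 97.5%), 4 into a cluster with markers of both germ and somatic cells, and 0 into a somatic cluster, which allows a share of up to 6.67% (3 cells of 45; the exact interval ends at 7.87%). Of 94 BVSC cells, 93 were of the germ class (98.9%, interval 94.2% to 100%) and 1 fell into the mixed cluster. These intervals cover counting error only. Summed over the 10 germ identity genes in the table, germ class BV cells ranged from 1101 to 4322 CPM with a median of 3059, and germ class BVSC cells from 1129 to 5571 with a median of 3153. The 2 ranges overlap almost fully. The 43 Negative cells of library 4 were all lower, between 30.4 and 427 CPM, with a median of 176. The 6 early gonadal somatic genes in the table, among them Wt1 and Nr5a1, regulators of gonadal supporting cells, summed to a median of 4.94 CPM in germ class BV cells and 7.99 CPM in germ class BVSC cells, against 1046 CPM in the Negative cells. Clusters were classed by these same germ identity and early gonadal somatic genes, so the sums of germ class cells are no separate evidence of their type. The germ identity genes include Dppa3.

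**Figure D1:**
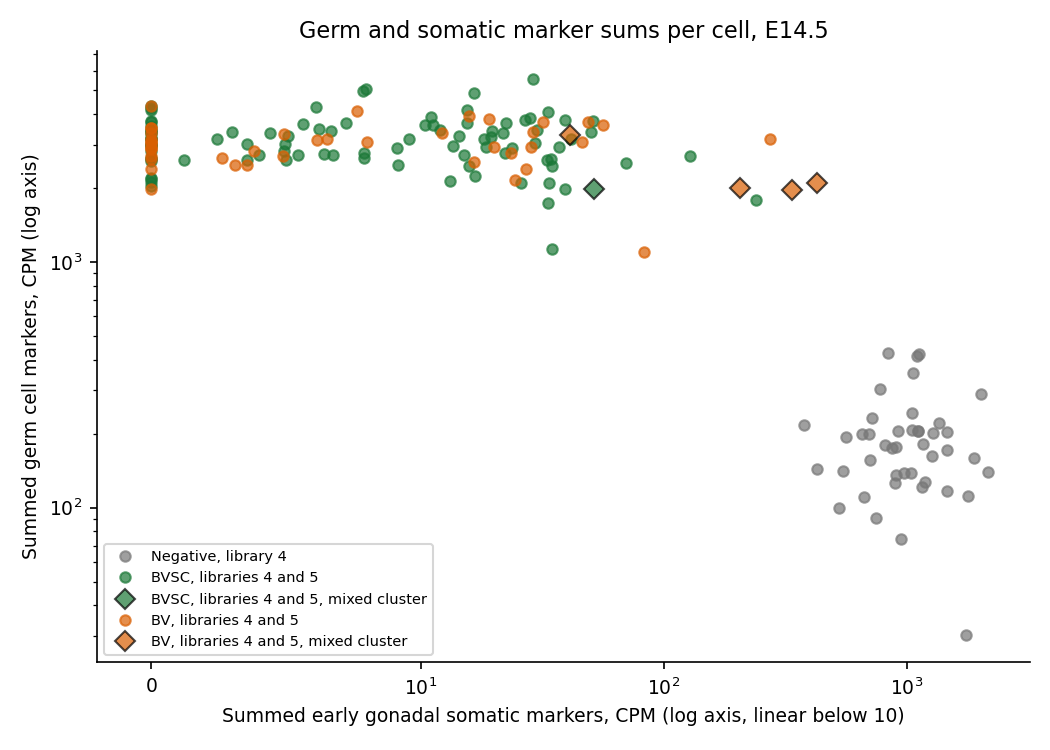
Each point is 1 cell of E14.5, by the summed CPM of early gonadal somatic genes (horizontal, log axis that is linear below 10) and of germ identity genes (vertical, log axis); diamonds are cells of the mixed cluster. BV and BVSC cells lie together at 1101 CPM of germ genes or more, and the Negative cells of library 4 lie apart below 427 CPM.

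The 4 BV cells of the mixed cluster, 2 in library 4 and 2 of letter C in library 5, carried germ and somatic transcripts together. Their germ identity sums were 1955, 2086, 2002 and 3275 CPM, within the range of the other BV cells. Their early gonadal somatic sums were 336, 428, 207 and 41.3 CPM, and their summed pregranulosa genes, markers of the cells that will surround the oocyte, were 602, 582, 491 and 1424 CPM. Wnt4, which directs ovarian supporting cell fate, was at 52.5 and 315 CPM in the pair of library 4 and at 38.7 and 6.88 CPM in the pair of library 5. All 4 also held Stra8 (801 to 1277 CPM) and Sycp1 (432 to 1390 CPM). Immediate early genes, which respond within minutes to stress and handling, summed to 1590 to 3551 CPM in these 4 cells and to a median of 24.6 CPM (range 0 to 1329) in the 41 germ class BV cells and 102 CPM (range 0 to 4880) in the 93 germ class BVSC cells. The BVSC cell of the mixed cluster, of letter C in library 5, likewise held both kinds. Its germ identity sum was 1981 CPM, its early gonadal somatic sum 51.9 CPM and its pregranulosa sum 954 CPM. Its immediate early genes summed to 1898 CPM. Among germ class cells, pregranulosa sums reached 311.5 CPM in BV and 1126 CPM in BVSC, both in library 5. The part of doublets, free RNA or handling in these values was not tested. The class counts depended on how clusters were drawn: at resolution 0.5, or with E14.5 cells clustered alone, all 45 BV and all 94 BVSC cells were classed as germ.

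A single further BV cell, of letter C in library 5, held endothelial transcripts. It had UMIs of all 6 endothelial genes in the table, summing to 2118 CPM, of which Egfl7, secreted by vessel cells, made up 1288 CPM and Kdr, a receptor for vascular endothelial growth factor, 498 CPM. Its germ identity sum was 1101 CPM, the lowest of the germ class BV cells, and it had Dppa3 at 291 CPM, Stra8 at 457 CPM and Sycp1 at 166 CPM from 48151 UMIs. The next highest endothelial sum among all 139 cells was 166 CPM, in the BVSC cell of the mixed cluster, with UMIs of Egfl7 alone. Sums for other cell types were low in the germ class pools of both gates. The 9 pregranulosa genes in the table summed to 110.5 and 31.2 CPM in BV of libraries 4 and 5. They summed to 57.9 and 29.3 CPM in BVSC and to 1842 CPM in the Negative pool of library 4. The 9 stroma genes in the table summed to 27 and 5.21 CPM in the BV pools of libraries 4 and 5 and to 9.15 and 5.84 CPM in the BVSC pools, against 451 CPM in the Negative pool of library 4. The 9 macrophage and immune genes summed to 12.6 and 7.6 CPM in BV and to 8.56 and 11.6 CPM in BVSC. The Negative pool of library 4 held 0.829 CPM of them, and those of the other E14.5 libraries 8.75 and 4.48 CPM.

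Library 4 carried a low level of somatic transcripts in germ cells and of germ transcripts in Negative cells. Wt1 had UMIs in all 13 germ class BV cells (9.54 to 35.7 CPM) and in 27 of 31 BVSC cells of library 4, but in 9 of 28 BV and 28 of 62 BVSC cells of library 5. In the other direction, Negative cells of library 4 held Dppa3 at 49.5 CPM and Stra8 at 57.8 CPM as a pool. Negative pools of the other E14.5 libraries held 12.3 and 19.8 CPM of Dppa3 and 22.1 and 1.59 CPM of Stra8. The part of this background in the comparison of the gates was not tested.

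The ranges of all 4 marker genes over cells overlapped between the gates. Dppa3, the gene of the reporter that BV cells are taken here to lack, had UMIs in all 45 BV cells and all 94 BVSC cells. In germ class cells it was at 635 CPM in BV and 576 CPM in BVSC of library 4, and at 448 CPM in BV and 764 CPM in BVSC of library 5. BV was thus higher in library 4 and lower in library 5, and the ranges over cells overlapped (21.3 to 1395 CPM in BV, 38.4 to 1903 CPM in BVSC). The low value of library 5 came with letter D, whose 15 BV cells were at 322 CPM as a pool, while the 13 BV cells of letter C were at 633 CPM. Against BVSC of the same letter, BV was lower in all 3 letters: 635 against 768 CPM for P, 633 against 755 CPM for C and 322 against 576 CPM for D. Only the pair of letter C shares a library. BVSC pools of the other E14.5 libraries were at 504 and 570 CPM, below the BV sets of letters P and C and above that of D. The log2 difference with library as a block was -0.31 ± 0.19 (SE, 2 libraries; edgeR's quasi-likelihood test, adjusted p = 1).

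Prdm1, whose reporter both gates share, was low and patchy. It had UMIs in 17 of 41 germ class BV cells and 52 of 93 BVSC cells. Thinned to 50000 UMIs per cell, which left out 3 BV and 5 BVSC cells, the shares were 26.2% and 37.1%, against 3.42% of the Negative cells of library 4, whose 3 sets had median depths of 161286 to 176034 UMIs. Its pools were at 22.3 CPM in BV and 10.1 CPM in BVSC of library 4 and at 18.1 and 28.5 CPM in library 5. The direction thus differed between libraries, and the log2 difference was 0.23 ± 0.80 (SE; edgeR, adjusted p = 1).

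Stra8 and Sycp1 were high in nearly all cells of both gates. Stra8 pools were at 938 CPM in BV and 859 CPM in BVSC of library 4, and at 839 CPM in BV and 577 CPM in BVSC of library 5. The low BVSC value came from letter P of library 5, at 416 CPM, and the letter C pair was at 974 CPM in BV and 921 CPM in BVSC. The exact 95% Poisson intervals of that pair, which cover counting error only, were 938 to 1011 CPM in BV and 894 to 948 CPM in BVSC. Sycp1 pools were at 665 CPM in BV and 588 CPM in BVSC of library 4, and at 690 and 475 CPM in library 5. In the letter C pair the order turned, with 665 CPM in BV and 739 CPM in BVSC. The log2 differences were 0.33 ± 0.17 for Stra8 and 0.36 ± 0.19 for Sycp1 (SE; edgeR's quasi-likelihood test, both adjusted p = 1), and ranges over cells overlapped for both genes. With each cell thinned to 15606 UMIs, which gives every cell the same weight in its pool, the Stra8 difference was -0.04.

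**Figure D2:**
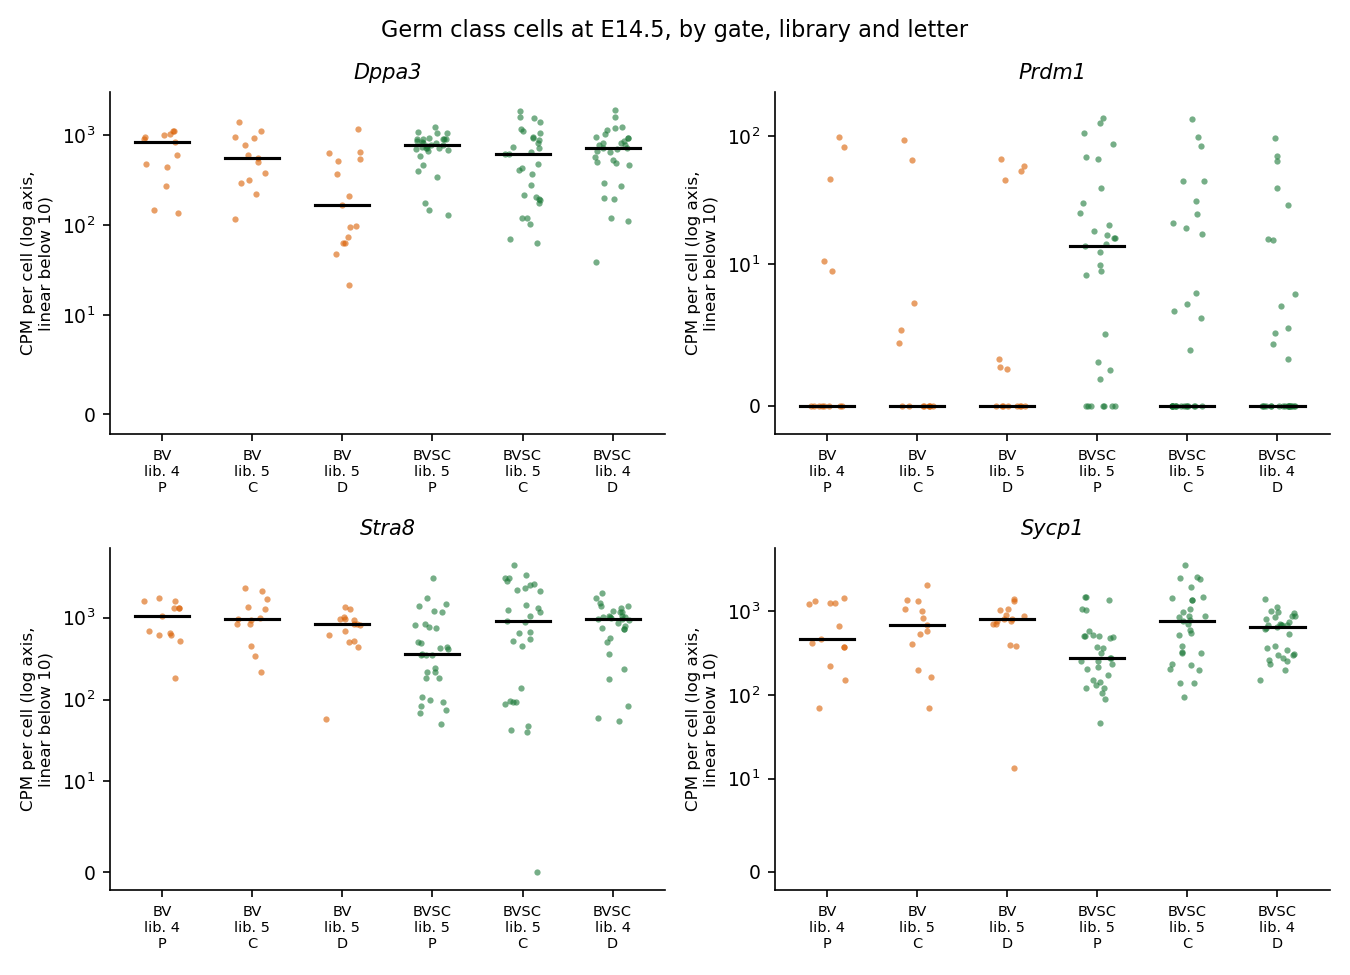
Each point is 1 germ class cell and bars are medians, for the 4 marker genes in CPM (log axis that is linear below 10), by gate, library and letter. Dppa3 is at 21.3 CPM or more in every cell of both gates, and the BV cells of letter D have the lowest median.

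Over all genes, no difference between the gates passed the test beyond its own variation between the 2 libraries. The letters of each gate differ between the libraries, so that variation cannot be told apart from letter. UMIs were summed per library and gate into 4 pools and tested with library as a block, which leaves 1 residual degree of freedom. With all 139 cells, 0 of 6946 genes passed an adjusted p of 0.05 in edgeR's quasi-likelihood test (0% of genes called), with 208 genes at an unadjusted p under 0.05. With the germ class alone, 0 of 6872 genes passed (0%), with 180 at an unadjusted p under 0.05. DESeq2 on the same pools called 66 genes (0.95%) and 34 genes (0.495%). In an alternative chosen after seeing the data, pools were split further by letter, with both letter and library as blocks. There edgeR called 24 of 6864 genes with all cells and 20 of 6778 in the germ class, 8 higher and 12 lower in BV. These 6 pools are parts of the same 2 libraries and not further replicates, and this fit also leaves 1 residual degree of freedom.

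Of the 10 germ class genes with the smallest unadjusted p on the BVSC side, L1td1 and Utf1 are on the list of pluripotency genes. L1td1, an RNA-binding protein of pluripotent cells, was at 16.6 CPM in BV and 62.7 CPM in BVSC of library 4 and at 21.1 and 108 CPM in library 5. By letter, the BV sets were at 16.6 (P), 30.5 (C) and 14.7 CPM (D), and the BVSC sets at 108 (P), 109 (C) and 62.7 CPM (D). All 3 BV sets were thus below all 3 BVSC sets. The gene was picked on these same cells, so that order is no separate evidence. BVSC pools of the other E14.5 libraries held 54.6 and 57.2 CPM, above all 3 BV sets and below all 3 BVSC sets. L1td1 had UMIs in 25 of 41 BV cells and in 68 of 93 BVSC cells. Thinned to 50000 UMIs, the shares were 36.1% and 61.1%, against 9.1% of the Negative cells of library 4. The log2 difference was -2.15 ± 0.58 (SE; edgeR, adjusted p = 0.76), and with letter and library as blocks it was -2.21 (edgeR, adjusted p = 1.83e-05, or 0.0311 with letter alone as block). Utf1, a chromatin factor of undifferentiated cells, was at 142 CPM in BV and 231 CPM in BVSC of library 4 and at 197 and 393 CPM in library 5. Its log2 difference was -0.85 ± 0.29 (SE; edgeR, adjusted p = 1; 0.0395 with letter and library as blocks and 0.41 with letter alone). By letter it was at 142 against 438 CPM (P), 242 against 299 CPM (C) and 167 against 231 CPM (D), lower in BV each time. Utf1 too was picked on these same cells. In BVSC pools of the other E14.5 libraries it was at 272 and 291 CPM, above both BV pools and between the 2 BVSC pools compared. Nanog, a core pluripotency factor named as a member of that list, was at 19.4 and 8.86 CPM in BV and at 23.2 and 70.9 CPM in BVSC of libraries 4 and 5. Its log2 difference of -1.64 ± 0.74 (SE; edgeR) had an adjusted p of 1, of 0.0395 with letter and library as blocks and of 0.3 with letter alone.

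Of the 19 pluripotency genes listed, 12 are in the table and all 12 were tested. None passed in edgeR's fit of 4 pools, 4 had an unadjusted p under 0.05, and 11 had a value below 0. The median log2 difference was -0.63, against -0.01 over all genes tested. By library, however, the median was 0.13 in library 4 and -1.20 in library 5. By letter it was -1.08 for P, -0.28 for C and -0.91 for D. In 5 of the 12, BV was lower in both libraries, which held for 23.8% of all genes tested, and in 7 BV was lower in all 3 letters, which held for 13.7% of all genes. The list includes Dppa3 and Prdm1, the genes of the reporters used for sorting, and L1td1 and Utf1, picked on these same cells. Dppa3, L1td1 and Utf1 are among those 7, so the counts are no separate evidence. Prdm14, a repressor that guards the germ cell's pluripotent state, was at 3.24 and 5.77 CPM in BV and at 10.2 and 30.03 CPM in BVSC (log2 difference -2.04 ± 0.99, SE), with a UMI in 13 of 41 BV cells, but in letter C it was at 11.4 CPM in BV and 10.1 CPM in BVSC.

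The other genes of the rule on the BVSC side were Gtsf1l, 1700019D03Rik, Gstm3, Wfdc3, Ddx58, Acss1, Hey1 and Gm16630. Gstm3, a glutathione transferase, was at 78.1 CPM in BV and 128 CPM in BVSC of library 4 and at 68.4 and 206 CPM in library 5, with UMIs in 32 of 41 BV cells and 83 of 93 BVSC cells. Gtsf1l, of a family of gamete-specific zinc-finger proteins, was at 0.36 and 2.11 CPM in BV and at 8.56 and 24.9 CPM in BVSC, and 1 cell held 68.8% of its UMIs in BV. Ddx58, the RNA sensor RIG-I, was at 7.2 and 16.46 CPM in BV and at 28.6 and 63.2 CPM in BVSC. Hey1, a target of Notch signalling, was at 3.24 and 6.19 CPM in BV and at 17.9 and 34.3 CPM in BVSC, and Acss1, a mitochondrial acetyl-CoA synthetase, at 6.84 and 1.13 CPM against 20.99 and 21.7 CPM. All had an adjusted p of 1 in the fit of 4 pools. Gstm3 (0.00607), 1700019D03Rik (0.0219) and Gtsf1l (0.0426) passed by adjusted p in edgeR with letter and library as blocks, and Ddx58, Acss1, Hey1, Wfdc3 and Gm16630 did not. With letter alone as block none of these 8 passed, and the first 3 had an adjusted p of 0.25, 0.38 and 0.38 (edgeR).

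On the BV side the genes were Gm15389, Bend7, Tmem8b, Gm30228, Dkkl1, Zbtb18, Zfp541, Pclo, Mmp19 and Arrb1. Zfp541, a zinc-finger protein of meiotic prophase, was at 58.3 CPM in BV and 25.6 CPM in BVSC of library 4 and at 57.8 and 9.51 CPM in library 5. By letter it was at 58.3 against 3.76 CPM (P), 43.4 against 21.8 CPM (C) and 67.7 against 25.6 CPM (D). All 3 BV sets were above all 3 BVSC sets, again in the cells by which the gene was picked. It had UMIs in 33 of 41 BV cells and 53 of 93 BVSC cells. Its log2 difference was 1.90 ± 0.66 (SE; edgeR, adjusted p = 1; 0.00607 with letter and library as blocks and 0.38 with letter alone). BVSC pools of the other E14.5 libraries held 31.1 and 35.5 CPM of Zfp541, above the BVSC pools compared. Bend7, a BEN domain protein, was at 50.04 and 14.3 CPM in BV and at 2.82 and 2.82 CPM in BVSC (log2 difference 3.23 ± 0.91, SE; edgeR, adjusted p = 0.94). Zbtb18, a transcriptional repressor, was at 59.04 and 20.8 CPM in BV and at 4.46 and 10.2 CPM in BVSC.

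Several genes of that side rested on few cells. Gm15389, the only one of these 10 besides Zfp541 to pass with letter and library as blocks (edgeR, adjusted p = 0.0038, but 0.14 with letter alone), had UMIs in 8 of 41 BV cells, at 15.8 and 13.1 CPM in the 2 libraries, and in 3 of 93 BVSC cells, at 0.117 and 0.131 CPM (edgeR's fit of 4 pools, adjusted p = 0.42). Dkkl1, Gm30228 and Mmp19 had UMIs in 6, 4 and 2 BV cells and in 0 of 93 BVSC cells, which allows up to 3.23% of cells with a UMI and does not limit the share expressing genes this low, and a single cell held 37%, 79.4% and 63.8% of their UMIs. In Tmem8b 1 cell held 58.8% of the BV UMIs. Pclo, a presynaptic scaffold protein, was at 23.4 and 18.4 CPM in BV and 1.17 and 4.20 CPM in BVSC, but in letter C it was at 2.08 CPM in BV and 10.9 CPM in BVSC. Arrb1, the adaptor beta-arrestin 1, had UMIs in 16 of 41 BV and 9 of 93 BVSC cells. BVSC cells of the other E14.5 libraries, 12 and 14, also held some of these genes. Their pools ranged from 3.3 to 6.65 CPM for Gm15389, from 8.49 to 14.6 CPM for Tmem8b, from 2.87 to 4.27 CPM for Dkkl1 and from 20.3 to 26.5 CPM for Zbtb18, each above both BVSC pools compared. For Bend7 they were at 5.39 and 5.7 CPM, below both BV pools.

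**Figure D3:**
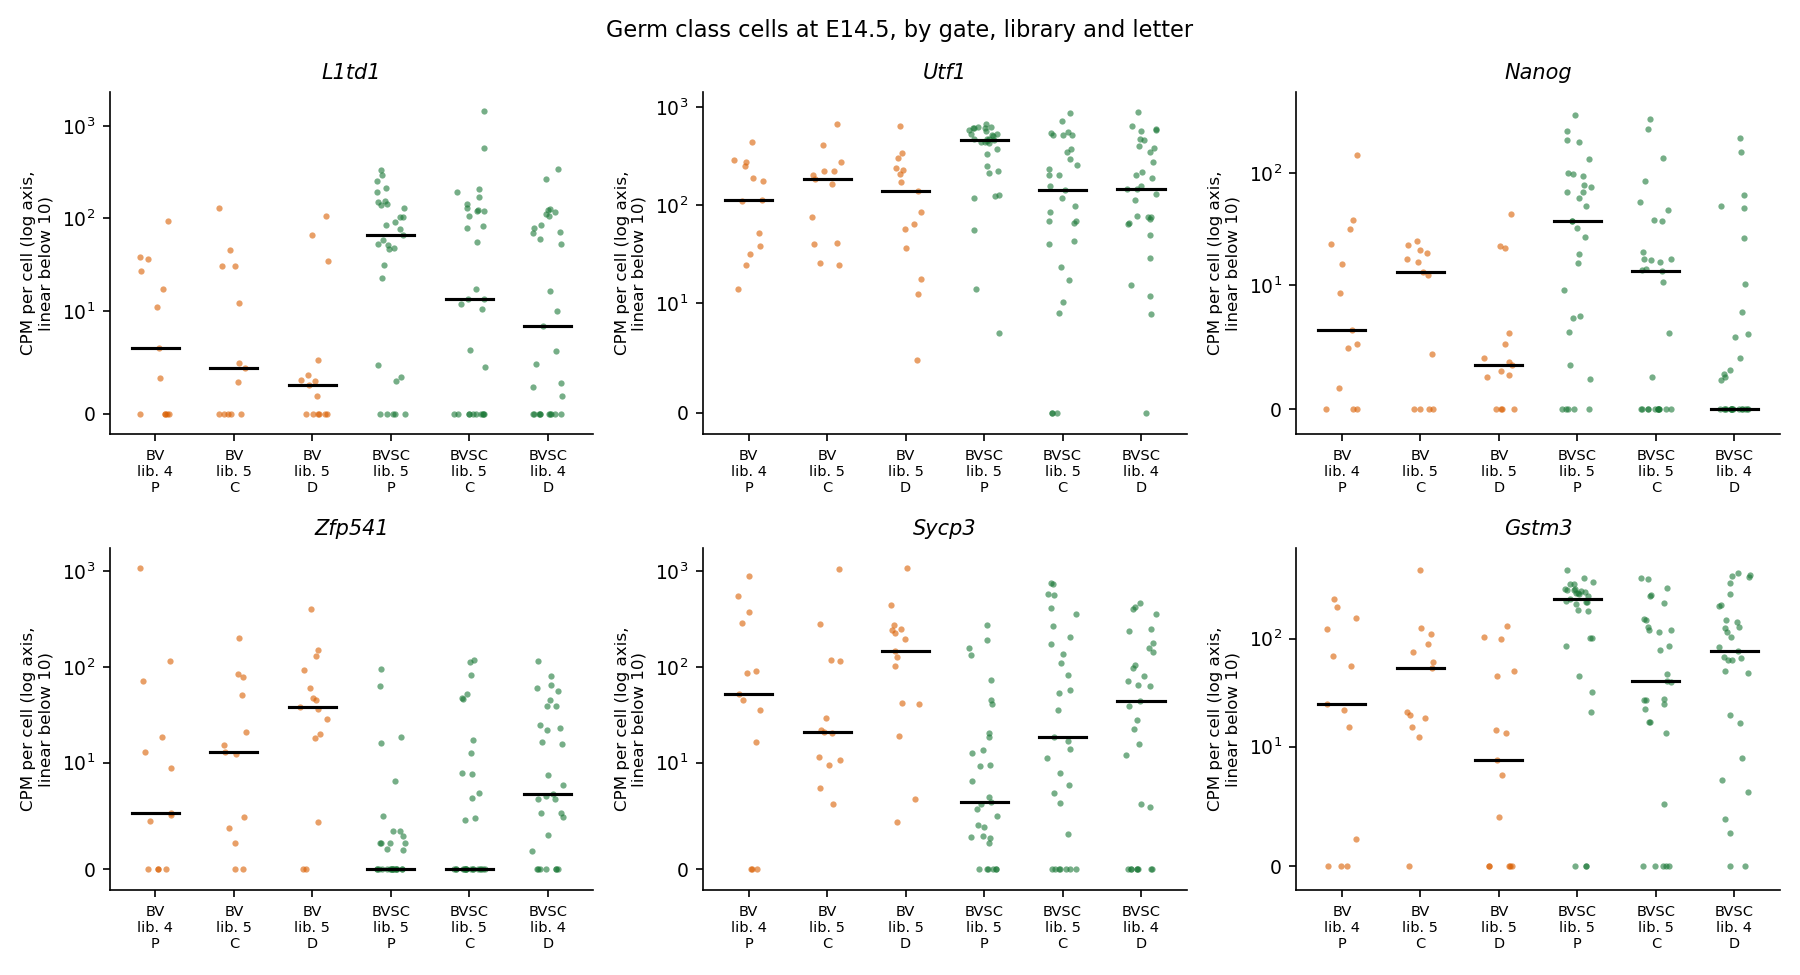
Each point is 1 germ class cell and bars are medians, in CPM (log axis that is linear below 10), for 3 pluripotency genes, Zfp541, Sycp3 and Gstm3 by gate, library and letter. L1td1 is above 131 CPM in no BV cell and reaches 1456 CPM in BVSC, and the pool of BV cells of letter D is the highest for Zfp541 (67.7 CPM) and Sycp3 (154 CPM).

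To ask how far the cells had moved through meiotic entry, genes that change between the neighbouring stages were taken from libraries that hold none of the cells compared. Germ class BVSC pools of E13.5 (libraries 3 and 10) and E15.5 (libraries 16 and 18) gave 372 genes higher at E15.5 (4.46% of 8342 tested) and 150 lower (1.8%) in edgeR's quasi-likelihood test. Among them Sycp1 rose by 2.70 (log2; edgeR, adjusted p = 0.0189) and Prdm1 fell by 3.74 (adjusted p = 0.0189), while Stra8 at 1.16 and Dppa3 at -1.75 did not pass. The lists depended on the libraries: without library 3 the test called 13 genes, without library 10 it called 28, without library 16 it called 1218 and without library 18 it called 2691. CNCCTCAG was present in the promoters of 20.1% of the 288 rising genes with a RefSeq promoter, 11.1% of 126 falling genes, 11.4% of 6546 genes tested and 9.12% of all 27025 genes in that table.

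On this axis, BV cells as a whole lay further along than BVSC cells, but not in both libraries. The rising genes summed to a median of 22321 CPM in the 41 BV cells and 14079 CPM in the 93 BVSC cells, against 8219 CPM at E13.5 and 57753 CPM at E15.5. In library 4 the medians were 17936 CPM in BV and 21093 CPM in BVSC. In library 5 they were 27225 CPM in BV and 13057 CPM in BVSC. The order of the gates thus turned between the libraries. The falling genes gave medians of 8160 CPM in BV and 7987 CPM in BVSC of library 4, and of 5319 and 9721 CPM in library 5, against 15792 CPM at E13.5 and 2915 CPM at E15.5.

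The spread within a gate was wide, and letters differed within BVSC alone. BV cells ranged from 8479 to 64405 CPM of rising genes and BVSC cells from 6260 to 55559 CPM, so both gates held cells at either end. The 15 BV cells of letter D stood highest, with a median of 48453 CPM, and the 31 BVSC cells of letter P lowest, with 12528 CPM, both in library 5. In the letter C pair of library 5 the medians were 20773 CPM in BV and 14376 CPM in BVSC. BVSC cells of E14.5 in library 12, which entered no comparison, had medians of 30183, 22293 and 14477 CPM for letters C, P and D, and those of library 14 had 23987, 16917 and 17641 CPM. The highest and lowest letter within BVSC lay further apart in both of these libraries than the gates did in the letter C pair, though in library 14 this held for C against P alone.

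Of the BV cells, 9 of 41 (21.95%, exact 95% binomial interval 10.6% to 37.6%) reached the lower quartile of E15.5 cells (48809 CPM), and 4 of 93 BVSC cells did (4.3%, interval 1.18% to 10.7%). Of these 9 BV cells, 7 were of letter D in library 5, 1 of letter C and 1 of letter P in library 4. At the other end, 3 BV cells (7.32%) and 13 BVSC cells (13.98%) were at or below the upper quartile of E13.5 cells (9789 CPM). Cells of a library are not replicates, so these shares were not tested.

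**Figure D4:**
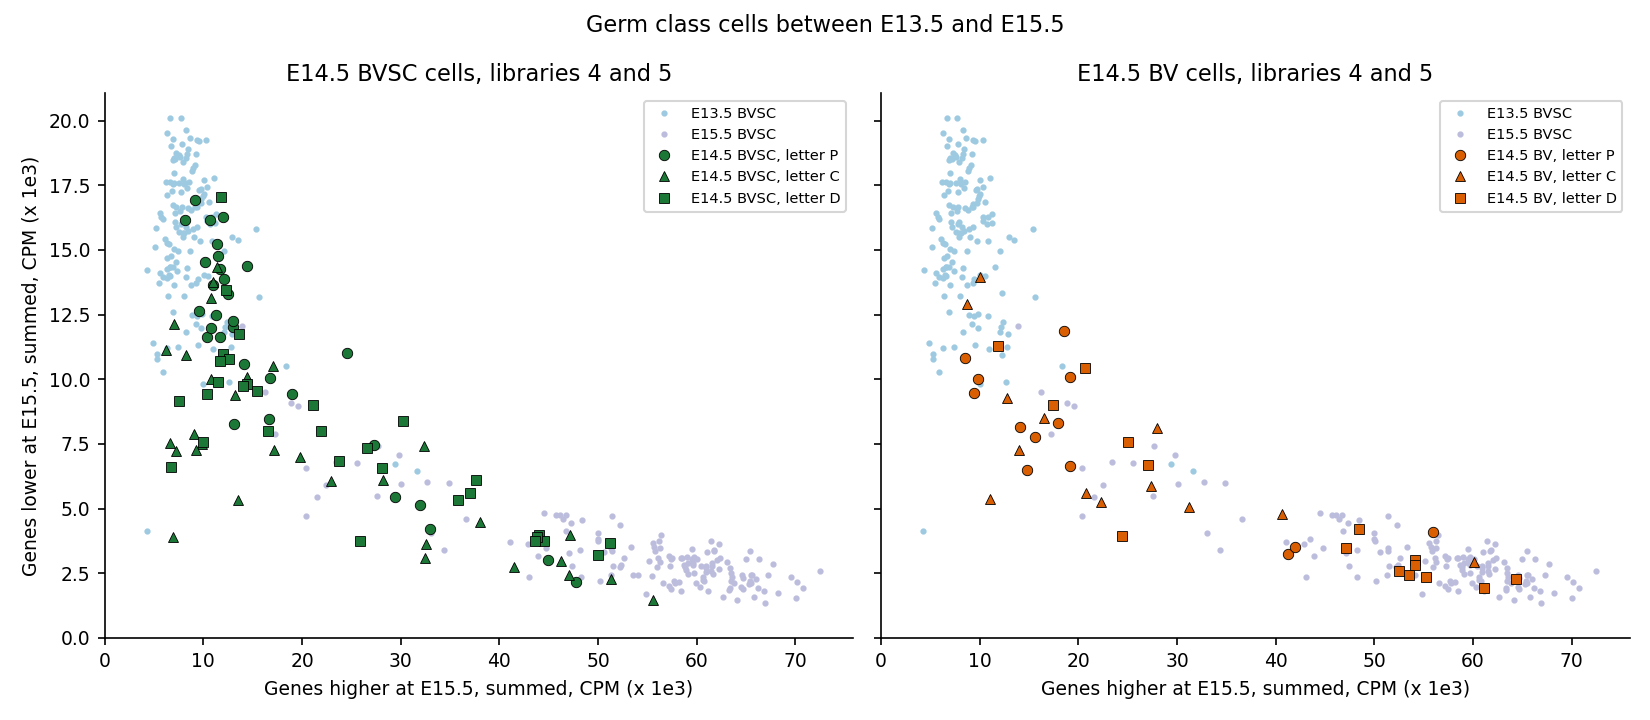
Each point is 1 germ class cell, by the summed CPM of genes higher at E15.5 (horizontal) and lower at E15.5 (vertical), both on linear axes, with E13.5 and E15.5 BVSC cells as pale points. Both gates span the path between the stages, and 7 of the 9 BV cells at or above 48809 CPM are of letter D.

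Of 335 rising genes tested between the gates, 0 passed in edgeR's fit of 4 pools, 253 (75.5%) had a value above 0, against 49% of all genes, and the median log2 difference was 0.33. Of 145 falling genes, 27 (18.6%) had a value above 0 and the median was -0.48. Rising genes were higher in BV in both libraries for 85 of 335 (25.4%), against 22.8% of all genes tested, and falling genes were lower in both for 67 of 145 (46.2%), against 23.8%. Within libraries, the median of the rising genes was -0.53 in library 4 and 1.14 in library 5, and that of the falling genes was 0.01 and -0.83. In the fit over all E14.5 pools without library 5 the rising genes had a median of -0.56, against -0.34 over all genes, and without library 4 it was 0.65, against -0.26. Matched by letter, the rising medians were 0.50 (P), 0.22 (C) and 0.66 (D) and the falling medians -0.72, -0.17 and -0.58. Rising genes were higher in BV in all 3 letters for 130 of 335 (38.8%), against 13.7% of all genes, and falling genes lower in all 3 for 58 of 145 (40%), against 13.7%. The letter pairs P and D cross the libraries, so library and gate cannot be told apart in them.

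Of the genes that build the synaptonemal complex and meiotic cohesin, 7 of 15 were tested and 0 passed in edgeR's fit of 4 pools. Of these 7, 6 (85.7%) had values above 0, against 49% of all genes, and the median was 0.37. It was 0.00 in library 4, 0.75 in library 5 and 0.02 in letter C. Sycp3, of its lateral element, was at 146 CPM in BV and 115 CPM in BVSC of library 4 and at 136 and 47.9 CPM in library 5 (log2 difference 0.92 ± 0.43, SE; edgeR, adjusted p = 1). Sycp2, its partner there, was lower in BV of library 4 (117 against 177 CPM) and higher in BV of library 5 (212 against 51.5 CPM). For Syce1, of the central element, the levels were 359 and 360 CPM in library 4 and 496 and 295 CPM in library 5. Sycp1, Sycp2, Sycp3 and Syce1 are also among the rising genes, so this list is not separate from those.

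Of the meiotic recombination genes, 11 of 32 were tested and 0 passed in edgeR's fit of 4 pools. Of these 11, 9 (81.8%) had values above 0, against 49% of all genes. The median was 0.28, with -0.77 in library 4 and 1.33 in library 5. Hfm1 was at 84.2 CPM in BV and 106 CPM in BVSC of library 4 and at 158 and 46.7 CPM in library 5, so its direction differed between the libraries. Mcmdc2, needed for strand exchange, was at 39.2 and 24.3 CPM and at 48.8 and 13.6 CPM, higher in BV of both libraries (log2 difference 1.27 ± 0.68, SE). AI481877, a crossover factor, was at 43.2 and 39.9 CPM in library 4 and at 73.8 and 14.8 CPM in library 5. Hfm1, Mcmdc2 and AI481877 are also among the rising genes, so this list too is not separate from those.

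**Figure D5:**
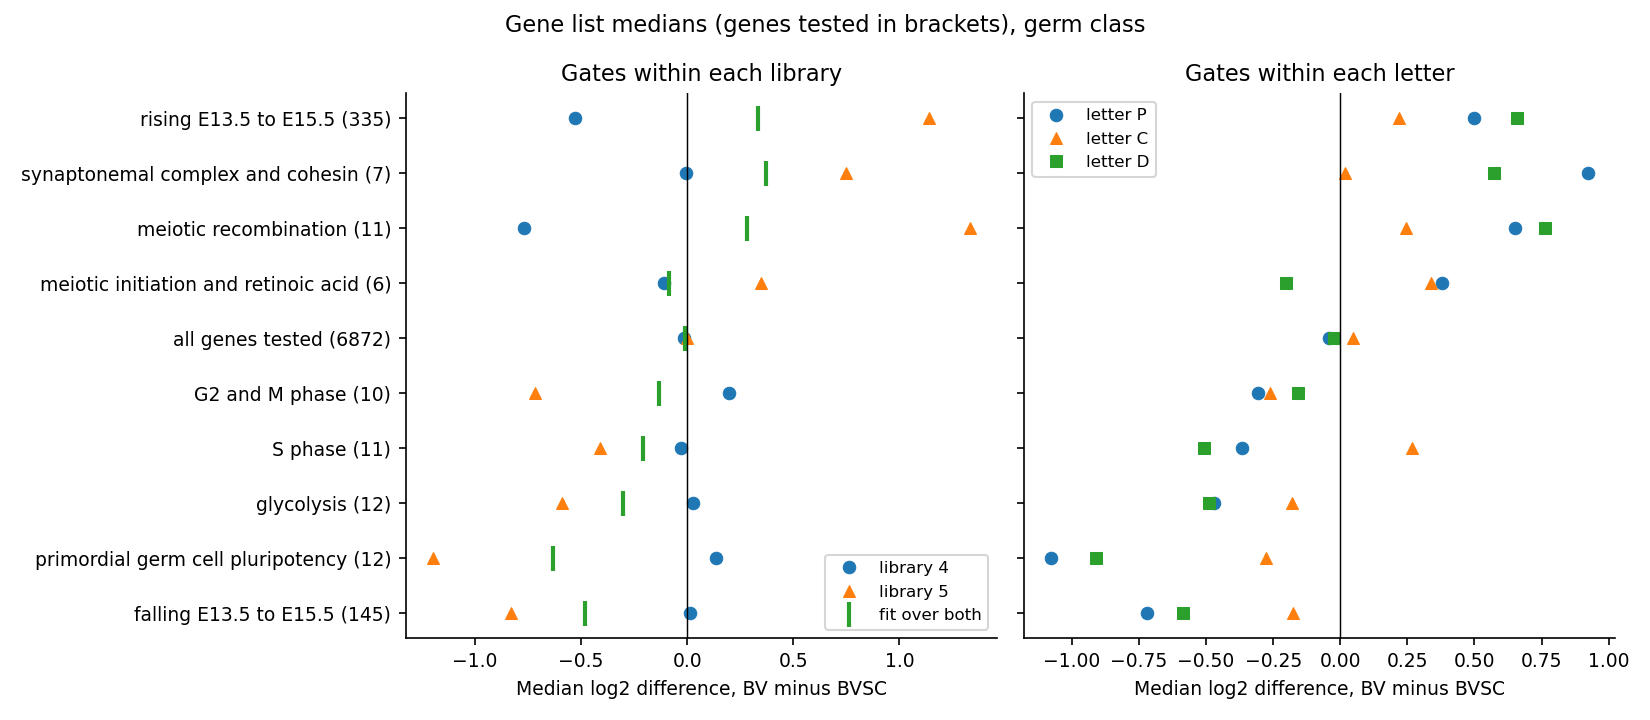
Points are median log2 differences, BV minus BVSC, of gene lists in the germ class, within each library and over both (left) and within each letter (right), with the number of genes tested in brackets. The rising genes lie at -0.53 in library 4 and 1.14 in library 5, and between 0.22 and 0.66 in the 3 letters.

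Genes of mitotic division and metabolism had medians below 0 without a call. The 11 S phase genes tested had a median of -0.21 and the 10 genes of G2 and M phase one of -0.13. Below 0 were 9 and 8 of them, while 49% of all genes tested had a value above 0. The S phase median was 0.27 in letter C, however. By library, the S phase median was -0.03 in library 4 and -0.41 in library 5, and that of G2 and M phase turned, from 0.20 to -0.72. Mcm6, a subunit of the replicative helicase, was at 288 CPM in BV and 305 CPM in BVSC of library 4 and at 213 and 364 CPM in library 5. Ccne2, an S phase cyclin, went against its list, at 126 and 118 CPM in library 4 and 162 and 69.6 CPM in library 5. The 12 glycolysis genes had a median of -0.30, with 10 below 0, of 0.03 in library 4 and -0.59 in library 5. Hk1, a hexokinase, was at 12.2 and 15.8 CPM in library 4 and at 4.08 and 29.8 CPM in library 5. Of the 7 piRNA and transposon defence genes tested the median was -0.17. Tdrd12, a Tudor protein of the piRNA pathway, was at 31.3 CPM in BV and 80.3 CPM in BVSC of library 4 and at 37.8 and 88 CPM in library 5 (log2 difference -1.29 ± 0.54, SE; edgeR, adjusted p = 1).

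Of the 20 genes listed for the oocyte and follicle programme, 14 are in the table and 7 were tested. In edgeR's fit of 4 pools 0 passed, and the median was 0.02. Figla, on this list, had UMIs in 36 of 41 BV and 80 of 93 BVSC cells. It was at 28.4 CPM in BV and 120.9 CPM in BVSC of library 4 and at 183 and 45.6 CPM in library 5. Sohlh1, a transcription factor of early oocytes, was at 10.4 and 5.06 CPM in BV and at 0.704 and 0.656 CPM in BVSC (log2 difference 3.38 ± 1.82, SE; edgeR, adjusted p = 1). Sohlh1 had UMIs in 9 of 41 BV cells, 1 of which held 41.5% of them, and in 12 of 93 BVSC cells. BVSC pools of the other E14.5 libraries held 0.97 and 4.23 CPM of Sohlh1. Lhx8, which acts with Sohlh1, was at 5.04 and 6.33 CPM in BV and at 1.06 and 4.72 CPM in BVSC. Of the list of meiotic initiation and retinoic acid response, 6 of 16 genes were tested, 3 of them with values above 0, and the median was -0.09. Gm4969, an HMG box gene whose product acts with STRA8, was at 6.48 CPM in BV and 38.9 CPM in BVSC of library 4 and at 25.2 and 14.4 CPM in library 5. Of the 10 genes of apoptosis and checkpoint tested, 7 had values below 0, while 49% of all genes tested had a value above 0. Their median was -0.35, with 0.01 in library 4 and -0.54 in library 5. None of the genes of the Nodal and male germ pathway passed the filter on low counts.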

How the data were processed

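Female gonad cells were measured by a modified STRT-seq assay. The deposited values are UMI counts per gene and cell, made by the authors with CASAVA 1.8, UMI-tools, STAR, featureCounts and Subread on mm10, per the submitters' processing notes. No source used here gives their roles, the annotation, the strand setting or filters. No cell types come with the table of cells. Genes beyond the 16344 complete rows, which end within chromosome 8, were not analysed here (Ddx4 and Dazl among them), and CPM are relative to deposited totals. Coordinates are GRCm38 (mm10).

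All cells were clustered (scanpy 1.11.5, leidenalg 0.10.2: 2000 variable genes, 30 components, 15 neighbours, resolution 1.0). Germ clusters reached at least 30% of the highest germ score and under 15% of the somatic score. 1 germ cluster is led by myeloid genes over the whole series, through 8 Negative cells of later stages. Its 8 BV and 6 BVSC cells had 0 UMIs of Cpa3, S100a8, Elane and Fcer1g but 38 and 2 of Fcgr3 (29 in 1 BV cell), and were kept. No doublet caller was run on hand-picked cells.

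UMI counts were summed per library and gate (at least 5 cells) and tested with edgeR 4.0.16 (R 4.3.3; TMM, filterByExpr, quasi-likelihood, library as a block, Benjamini-Hochberg at 0.05). Standard errors are the log2 fold change divided by the root of F, and printed adjusted p of 1 are rounded. DESeq2 1.42.0 and limma 3.58.1 were alternatives. Values per library or letter are log2 CPM ratios with a prior count of 2. Thinned shares are the mean over all draws. The fits were tested on simulated data, in which edgeR missed many changed genes and DESeq2 called many unchanged ones. Thus 0 edgeR calls do not show equality, and DESeq2 counts may be too high. With letter and library as blocks edgeR also called some unchanged genes, more than in its fit of 4 pools. The simulated pools held no difference between libraries or letters, so these outcomes need not carry over to the real pools. In the fit of 4 pools a p-value reflects only how far the gate difference varies between the libraries. Both carry R1, so that variation may be technical, and it cannot be told apart from their differences in letter. Genes named were the 4 markers, per direction the 10 genes of smallest p with the same direction in both libraries, and up to 4 members of each of 23 lists by size of change. Wt1, Wnt4, Kdr, Egfl7 and Figla were named after their values were seen. The members, lists and tests were chosen with earlier results of these data known. Depth was 15606 to 830168 UMIs per cell.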

Additional observations from a re-analysis of the deposited data

Results flagged for a closer look

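The genes that rise between E13.5 and E15.5 differed between the gates in opposite directions in the 2 libraries: the median log2 difference, BV minus BVSC in the germ class, was -0.53 in library 4 and 1.14 in library 5. The falling genes gave 0.01 and -0.83. The difference between the libraries was not tested. Gate and letter cannot be told apart in library 4.

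Dppa3 also moved oppositely, with BV above BVSC by 58.9 CPM in library 4 and a difference of -315 CPM in library 5. The difference was not tested. Prdm1 differed by 12.2 CPM in library 4 and by -10.3 CPM in library 5, likewise not tested, with UMIs in fewer than 60% of cells of either gate.

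The BV cells of E11.5, which entered no comparison, had a median of 10613 CPM over the 9 macrophage and immune genes, while the 8 Negative cells of the same library had at most 500 CPM. They are 5 cells of 1 library.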

How the results depend on the processing

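With 4 pools and 1 residual degree of freedom, edgeR called 0 genes in both comparisons, also with upper-quartile scaling, no filter on low counts, no block (0 genes called without the library block), thinned cells, limma and, for the germ class, marker sums. With all gated cells, DESeq2 called 66 genes, the fit over all E14.5 pools with a library block 16, with gate alone 1, letter and library blocks 24, and the fits leaving out 1 library 0 to 92 (92 without library 5). In the germ class, DESeq2 called 34, letter and library blocks 20 and the letter block 1. The cause was not tested. Germ class counts became 45 BV and 94 BVSC cells at resolution 0.5, with E14.5 cells alone and with marker sums. The stage test called 3076 genes with DESeq2, 3152 for E13.5 against E16.5, and 13 to 2691 with 1 library left out. Medians of the rising genes ran from -0.56 (without library 5) to 0.65 and those of the falling genes from -0.76 to -0.18. The median of all germ class genes moved to 0.13 with the mean of cells, and to -0.26 and -0.34 without library 4 or 5, where the lone pool is assumed to vary like the others.

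Directions turned for Dppa3 without library 5 (0.03 with all cells, 0.17 in the germ class; -0.46 and -0.47 without library 4), for Stra8 with thinned cells (-0.03 and -0.04) and for Tmem8b without library 4 (-1.26 and -1.38; 1.15 and 1.45 without library 5). Prdm1 turned with all cells to -0.52 (gate alone), -0.09 (letter and library), -0.10 (letter), -0.49 (limma), -0.16 (no replicate block) and -0.84 to -0.56 with 1 library left out, and in the germ class to -0.33 (gate alone), -0.38 (limma), -0.27 (without the cluster led by myeloid genes) and -0.84 to -0.25 with 1 library left out. These are the 18 turned values of single genes; 519 kept direction and side and 61 came to pass.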

Other observations

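The 5 BV cells of E11.5, all of library 2, had 19206 to 135311 UMIs. Their germ identity sums were 156 to 250.5 CPM (median 209), and those of the 8 Negative cells of that library 97.9 to 500 CPM (median 146). Their early gonadal somatic sums ran from 0 to 3593 CPM, with a median of 18.8, against 83.4 to 2729 CPM, with a median of 1894, in the Negative cells. None of the 5 fell into a germ cluster, and 1 of the 8 Negative cells did. Of the 5 BV cells, 4 fell into a cluster of 9 cells led by C1qb, C1qc, C1qa and Lyz2, genes of macrophages, and 1 into a somatic cluster led by Sparcl1 and Tcf21. Those 4 had UMIs of all 9 macrophage and immune genes in the table, which summed to 9989 to 14937 CPM. The other had 208 CPM of these and 2135 CPM of stroma genes.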
